A study of Mus musculus with 14 samples.

Results

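The 10 genes described here encode molecules through which regulatory T cells (Tregs) restrain other cells: the cytokines Il10, Ebi3 and Tgfb1, the TGF-beta anchor Lrrc32, the ectoenzymes Entpd1 and Nt5e, the fibrinogen-like protein Fgl2, the granule protease Gzmb, the lectin Lgals1 and the growth factor Areg. They were chosen by name, and all 10 were found among the 48363 genes with values in the table. All 10 also passed the filter on low values, at least 10 normalized counts in at least 2 libraries, as did 16241 genes in all. The bulk RNA-seq data come from live CD4+ FOXP3-YFP+ cells that were sorted fresh from the spleen and the inguinal, axillary and brachial lymph nodes of untreated mice, with these organs pooled. The 5 cKO libraries are from miR-15/16 fl/fl mice in which Cre, expressed from the endogenous Foxp3 locus together with YFP, deletes both miR-15/16 clusters once Foxp3 is on. The 4 WT libraries are from mice with the same Cre and unfloxed miR-15/16 alleles. The 2 CD25lo and 3 CD25hi libraries are WT Tregs sorted into bins by surface CD25, the IL-2 receptor alpha chain. The study's methods describe mice of both sexes matched for age and sex, and which of its age groups was sequenced is not given in the sources used here. The cKO Tregs matured in a host whose Tregs all lacked miR-15/16, so the deletion within a cell and the state of the host cannot be told apart.

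Tregs suppress through soluble factors, through enzymes on their surface and through contact with other cells. IL-10 and IL-35, a dimer of the Ebi3 and Il12a products, are secreted. TGF-beta1 is held in a latent form on the Treg surface by GARP, the product of Lrrc32, until the integrin alpha-v beta-8 releases it. CD39, encoded by Entpd1, removes phosphates from extracellular ATP, and CD73, encoded by Nt5e, turns the resulting AMP into adenosine, which acts on lymphocytes through adenosine receptors. Granzyme B is stored in granules and enters target cells through perforin. Galectin-1, the Lgals1 product, binds glycans on other T cells, and amphiregulin, the Areg product, is an EGF receptor ligand through which tissue Tregs are known to promote repair. FGL2 is secreted by Tregs and binds inhibitory Fc receptors on antigen-presenting cells.

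The deleted miRNAs share the seed that pairs with target mRNAs, shown in capitals (bases 2 to 8, RefSeq on GRCm38.p6) because the members were searched for matches to it.
mmu-miR-15a-5p: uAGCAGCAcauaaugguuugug
mmu-miR-15b-5p: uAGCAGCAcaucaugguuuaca
mmu-miR-16-5p: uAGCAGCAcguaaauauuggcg
The miR-15a and miR-16 genes are encoded together on chromosome 14 (miR-15a at 61632075 to 61632096, miR-16-1 at 61631936 to 61631957, both on the minus strand). The miR-15b gene and another copy of miR-16 lie on chromosome 3 (miR-15b at 69009775 to 69009796, miR-16-2 at 69009918 to 69009939, both on the plus strand). Matches were searched on the transcript strand of the longest annotated 3′ UTR of each gene (GENCODE M21, GRCm38) as TGCTGCT, as GCTGCTA, or as both overlapping. Of the 10 members, 2 held such a match, Entpd1 and Lrrc32, beside a match in 27.8% of the 12725 tested genes with an annotated 3′ UTR. Each had 2 matches, all of the TGCTGCT form, shown here within 30 bases of transcript with the match in capitals.
Entpd1, chromosome 19, 40740426 to 40740432, plus strand: acatcaggtgtTGCTGCTcctcctcatgtg
Entpd1, chromosome 19, 40740782 to 40740788, plus strand: gttgtggtagcTGCTGCTggctgagcgtct
Lrrc32, chromosome 7, 98501651 to 98501657, plus strand: tccctcactggTGCTGCTgcgcacacagct
Lrrc32, chromosome 7, 98501736 to 98501742, plus strand: acactaatcaaTGCTGCTctcacctcccag
The Entpd1 matches lay in 1 of its 3 annotated coding transcripts with a 3′ UTR and the Lrrc32 matches in both of its 2. Fgl2, with a 3′ UTR of 2414 bases, held none of these letters, and neither did Il10, Gzmb, Ebi3, Areg, Lgals1, Tgfb1 or Nt5e. A match is a stretch of letters and not evidence of binding.

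Between 30055573 and 35226685 reads fell in genes per library, so that a count of 0 allows up to 3 reads, or 2.73 to 3.28 normalized counts. The rows of the 4 miRNA genes hold 0 in all 14 libraries, as libraries of long RNA do not capture mature miRNAs, and therefore check no label. Dleu2, the host transcript of miR-15a and miR-16-1, had 2121 to 2713 normalized counts in cKO libraries, against 86.3 to 1099.7 in WT libraries. Foxp3 was present in every group, at 18565 ± 719 normalized counts in cKO, 19541 ± 1406 in WT, 15422 ± 1239 in CD25lo and 22851 ± 1350.2 in CD25hi Tregs (SD, n = 5, 4, 2 and 3). Foxp3 passed the test as lower in CD25lo than in CD25hi Tregs (limma, log2 fold change -0.57, adjusted p = 0.0016). Some properties of the libraries moved with the groups. By Xist and Ddx3y, all 5 cKO libraries and WT replicate 3 were female and the other 8 libraries male. The mean level of 22 immediate early genes, which respond to stimulation and to tissue handling, was 12.22 to 13.55 in cKO and 13.32 to 13.57 in WT replicates 1 to 3 on the log2(normalized count + 1) scale, but 11.67 in WT replicate 4 and 11.42 to 11.99 in the 5 CD25-sorted libraries. A list of 12 myeloid markers summed to 891 to 5534 normalized counts in cKO libraries and 1561 to 9253 in WT libraries, against 752 to 1521 in CD25lo and 703 to 1035 in CD25hi libraries, with S100a8 and S100a9 at 0 in all cKO libraries.

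Per kilobase of exon, Lgals1 and Lrrc32 were the most abundant of the 10 members in cKO and in WT Tregs, and Entpd1 was among the least in both. The length is the union of exons over all annotated transcripts, such as 8602 bases for Nt5e and 5042 for Tgfb1. The order therefore depends on the annotation and was not tested with other lengths. In cKO Tregs, Lgals1 averaged 3823 ± 847 normalized counts per kilobase (SD, n = 5) and Lrrc32 3284 ± 162, with overlapping ranges. Tgfb1 followed at 1571 ± 35.8, Il10 at 1471 ± 585, Nt5e at 1180.0 ± 152, Ebi3 at 1048 ± 199, Gzmb at 798 ± 383, Areg at 728 ± 372 and Fgl2 at 545 ± 127, and each of these overlapped with the next. Entpd1 came last in cKO Tregs, at 302 ± 6.59, and its range lay below that of Fgl2. In WT Tregs, Lgals1 averaged 4879.6 ± 1063 normalized counts per kilobase (SD, n = 4), Lrrc32 3349.8 ± 429 and Tgfb1 1569 ± 51.8, with no overlap between them. Nt5e at 1194 ± 161, Il10 at 901 ± 472, Ebi3 at 802 ± 163, Areg at 572 ± 386 and Gzmb at 438 ± 115 came next, each overlapping with its neighbour. Entpd1 at 264 ± 42.2 and Fgl2 at 254 ± 38.4 closed the WT order and overlapped with each other. In CD25lo Tregs, Lgals1 led at 3994 ± 447 normalized counts per kilobase (SD, n = 2), and Lrrc32 at 1436 ± 244 and Tgfb1 at 1464 ± 81.6 overlapped. In CD25hi Tregs, Lrrc32 had the highest mean at 3676 ± 447 (SD, n = 3), and its range overlapped that of Lgals1 at 3459 ± 219.

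**Figure D1:**
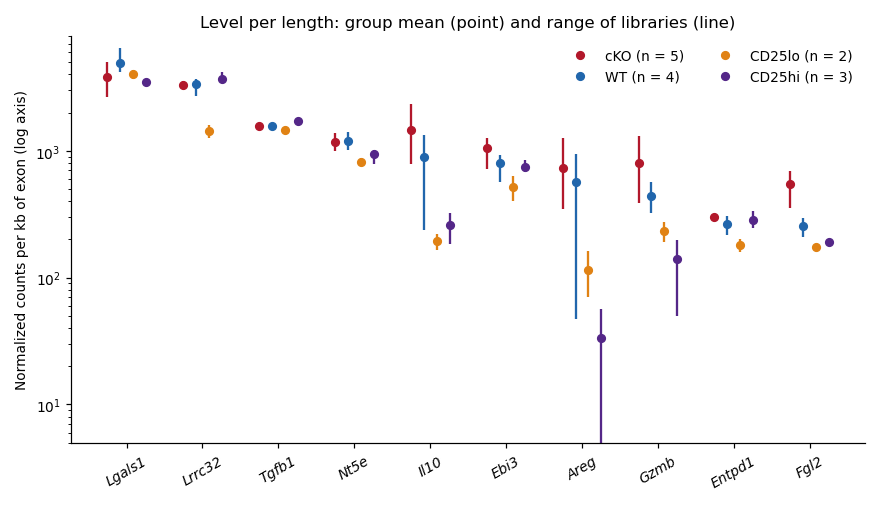
Normalized counts per kilobase of exon (log axis) of each member in cKO, WT, CD25lo and CD25hi Tregs, with points for group means and lines for the range of the libraries. Lgals1 and Lrrc32 stand highest in cKO, WT and CD25hi Tregs, while in CD25lo Tregs Lgals1 stands highest and Tgfb1 and Lrrc32 overlap below it. The largest spans within a group are those of Il10, Areg and Gzmb. The CD25hi line of Areg reaches 0 and is cut at the axis.

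The members differed in how steady they were among mice of a group. Tgfb1 and Entpd1 had coefficients of variation of 2.28% and 2.18% in cKO Tregs, and Tgfb1 had 3.30% in WT Tregs. At the other end, Areg varied by 51.0% in cKO and 67.5% in WT Tregs, Gzmb by 48.0% and 26.2%, and Il10 by 39.8% and 52.4%. For Il10, Gzmb and Areg alike, the 6 lowest of the 14 values were those of WT replicate 4 and the 5 CD25-sorted libraries, which are also the 6 libraries with the lowest immediate early level. No other member had that set of 6 as its lowest.

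**Figure D2:**
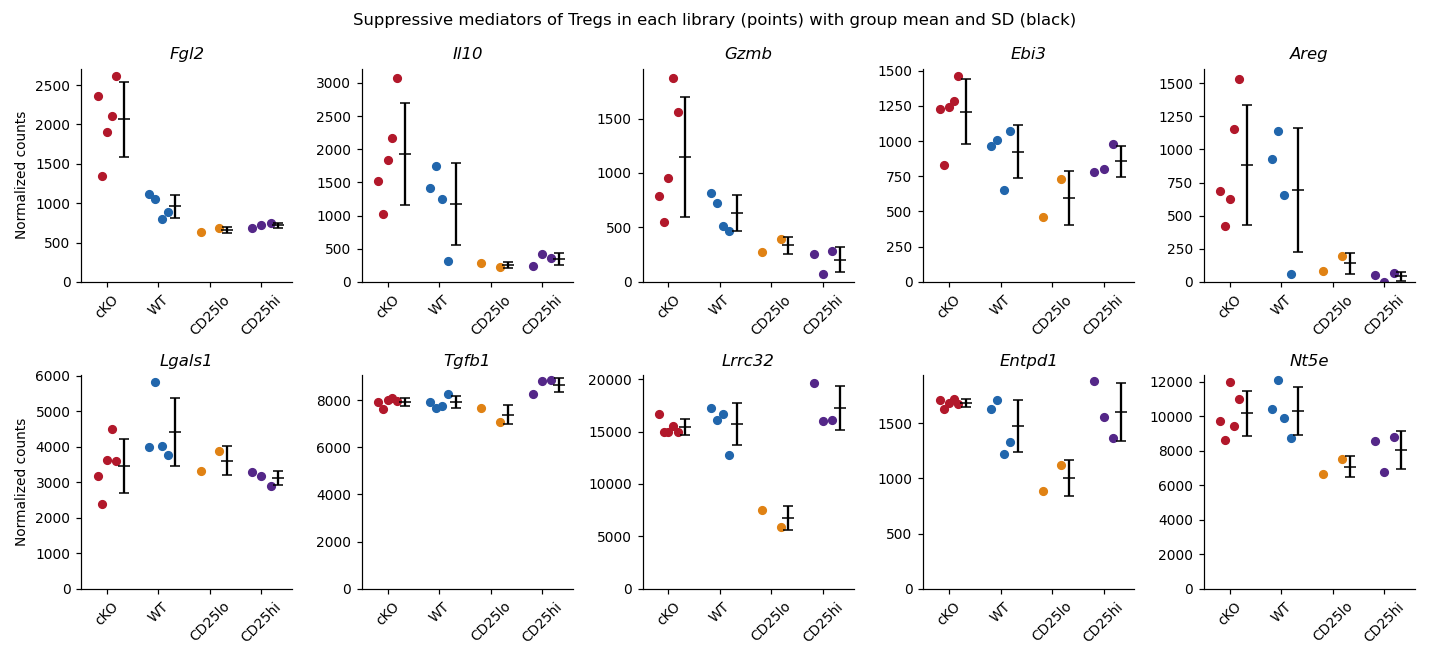
Normalized counts of the 10 members in every library, with the group mean and SD beside the points, for cKO, WT, CD25lo and CD25hi Tregs. The 5 cKO values of Fgl2 all lie above the 4 WT values, and the 2 CD25lo values of Lrrc32 lie far below all others.

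The first comparison asks which of the mediators differed between cKO and WT Tregs. All 5 cKO libraries but only replicate 3 of the WT libraries were female, so genotype and sex cannot be told apart for any member. Fgl2 rose and was the only one of the 10 members to pass the test in cKO against WT Tregs, where 3.52% of all genes tested passed (2.04% as higher). The median log2 fold change of the members was 0.30, beside 0.05 over all genes tested. The groups did not overlap for 1 member, Fgl2, and for 8.54% of all genes. In cKO replicates 1 to 5, Fgl2 had 2356, 1349.5, 1899.9, 2104 and 2611 normalized counts, against 1111, 1052, 798 and 883 in WT replicates 1 to 4. Every cKO library was above every WT library. Fgl2 (ENSMUSG00000039899, chromosome 5, 21372642 to 21378374, GRCm38) averaged 2064 ± 480.5 normalized counts in cKO Tregs and 961 ± 145 in WT Tregs (SD, n = 5 and 4), a log2 fold change of 1.08 ± 0.16 (SE), or 2.11-fold (limma, Benjamini-Hochberg adjusted p = 0.00073). Fewer cells with the transcript and less transcript per cell cannot be told apart in bulk RNA, for this and every other value. Fgl2 passed in each of 15 other analyses and without each library in turn. With a term for sex the log2 fold change was 1.34 (limma, adjusted p = 0.047), in a fit that rests on WT replicate 3 as the only female WT library, whose 798 normalized counts were the lowest WT value. Between the libraries with an immediate early level above 13, 2 cKO and 3 WT, it was 1.26 (limma, adjusted p = 0.012). Myeloid cells also express Fgl2. The summed myeloid markers had a median of 1195 normalized counts in cKO libraries (891 to 5534), against 5499.6 in WT libraries (1561 to 9253). These ranges overlapped. Cebpb, which is among the summed markers, averaged 798 normalized counts in cKO and 763 in WT Tregs, so the sums do not measure myeloid cells alone. The part of myeloid cells in the Fgl2 values was not tested.

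Il10, the anti-inflammatory cytokine gene, did not pass the test. It had 1523, 1029, 1839.6, 2167 and 3073 normalized counts in cKO replicates 1 to 5, against 1418, 1750.5, 1245 and 308 in WT replicates 1 to 4. The groups overlapped, and WT replicate 4 was far below the rest. The log2 fold change was 0.87 ± 0.39 (SE; limma, adjusted p = 0.27), and 0.31 without WT replicate 4 (limma, adjusted p = 0.61). With the immediate early level as a covariate Il10 passed, at 1.08 (limma, adjusted p = 0.0028), and with the myeloid level at 1.35 (limma, adjusted p = 0.046). With a term for sex Il10 did not pass, at 0.54 (limma, adjusted p = 0.99). How far these library properties account for the Il10 values was not tested.

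**Figure D3:**
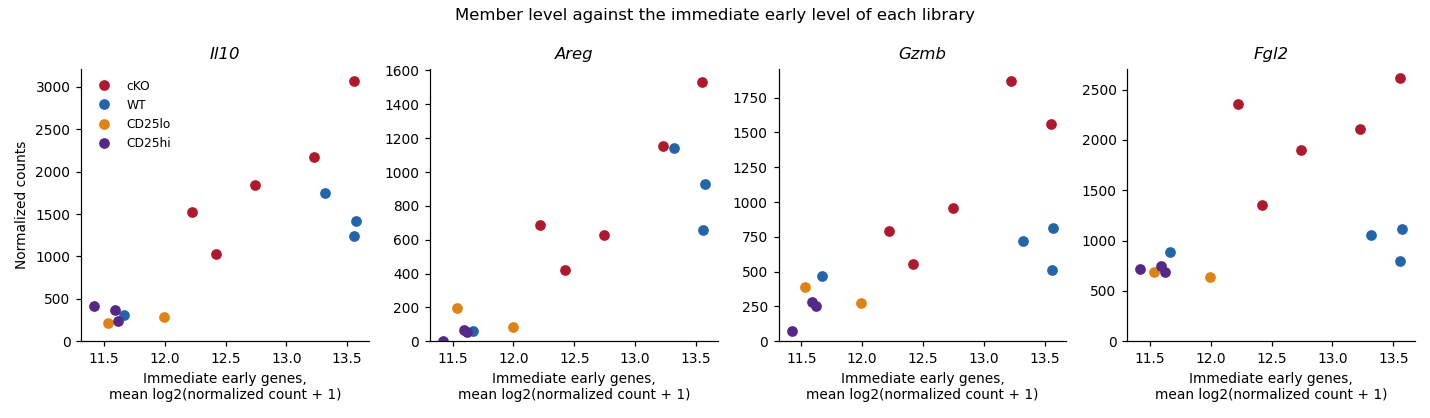
Normalized counts of Il10, Areg, Gzmb and Fgl2 against the mean log2 level of 22 immediate early genes in each library of cKO, WT, CD25lo and CD25hi Tregs. WT replicate 4 and the 5 CD25-sorted libraries sit at the lower left. Every cKO library lies above every WT library in Fgl2, but no cKO library has an immediate early level as low as WT replicate 4.

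Gzmb, the granzyme B gene, was uneven among the cKO mice. Its values were 793, 551.5, 956, 1869 and 1558 normalized counts in cKO replicates 1 to 5, against 812, 721, 515 and 466 in WT replicates 1 to 4. Replicates 3, 4 and 5 of cKO were higher than every WT library, while replicates 1 and 2 lay within the WT range. The log2 fold change of 0.76 ± 0.38 (SE) did not pass (limma, adjusted p = 0.33), but it was 1.35 among the libraries with an immediate early level above 13 (limma, adjusted p = 0.020) and 1.46 with the myeloid level as a covariate (limma, adjusted p = 0.0034). With a term for sex Gzmb did not pass, at 1.01 (limma, adjusted p = 0.89). Areg had 688, 420.4, 627, 1153 and 1535 normalized counts in cKO replicates 1 to 5 and 929, 1140.1, 656 and 57.6 in WT replicates 1 to 4. The groups overlapped, and only WT replicate 4 stood apart. The log2 fold change of Areg was 0.83 ± 1.0 (SE; limma, adjusted p = 0.76), was 0.36 with edgeR, turned to -0.15 without WT replicate 4 and was 2.7 with the myeloid level as a covariate (limma, adjusted p = 0.026). With a term for sex Areg did not pass, at 0.28 (limma, adjusted p = 0.999).

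Ebi3, which supplies the beta subunit of IL-35 and IL-27, had 1226, 833, 1242, 1281 and 1462 normalized counts in cKO replicates 1 to 5, against 968, 1009, 651 and 1073 in WT replicates 1 to 4. The groups overlapped, with cKO replicate 2 below 3 of the 4 WT libraries, and the log2 fold change was 0.39 ± 0.18 (SE; limma, adjusted p = 0.30), or 0.23 without WT replicate 3. The partner chains that Ebi3 needs were nearly undetected. Il12a, the IL-35 partner, had 2.9 normalized counts in 1 cKO library and 0 in the other 13. Il27, the IL-27 partner, had 6.1 normalized counts in 1 WT library and 0 in the rest, and Il12b and Il23a were at 0 in all 14. None of these 4 genes passed the filter on low values. In the Ebi3 row itself, an antisense gene, Gm16712, overlaps the exons, and since the strand setting of the counting is not given in the sources used here, the reads of the pair cannot be told apart. Gm16712 reached at most 29.8 normalized counts.

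Lgals1, the galectin-1 gene, had the most negative value of the members. It had 3166, 2392, 3618, 4494 and 3590.2 normalized counts in cKO replicates 1 to 5, against 3993, 5835, 4032 and 3766 in WT replicates 1 to 4. The groups overlapped, WT replicate 2 was the highest of all 14 libraries, and the log2 fold change of -0.36 ± 0.15 (SE) did not pass (limma, adjusted p = 0.22). The genes of TGF-beta1 and its anchor also did not pass. Tgfb1 had 7929, 7618, 8004, 8089 and 7979 normalized counts in cKO replicates 1 to 5 and 7925, 7678, 7766.5 and 8271 in WT replicates 1 to 4, with a log2 fold change of 0.003 ± 0.054 (SE). Lrrc32 had 16674, 14923, 14918, 15522 and 14945 normalized counts in cKO and 17248.5, 16112, 16685 and 12770.4 in WT libraries, with a log2 fold change of -0.02 ± 0.09 (SE). The adjusted p was 0.99 for Tgfb1 and 0.95 for Lrrc32 (limma), and the groups overlapped for both.

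Of the adenosine pair, Entpd1 was nearly constant among cKO mice, at 1715, 1630.3, 1680.0, 1721 and 1672 normalized counts in replicates 1 to 5, against 1634, 1707, 1219 and 1328 in WT replicates 1 to 4. WT replicates 3 and 4 were below all cKO libraries and WT replicate 2 was above 3 of them, and the log2 fold change of 0.21 ± 0.12 (SE) did not pass (limma, adjusted p = 0.41). Nt5e had 9742, 8634, 11950.4, 9452 and 10975 normalized counts in cKO and 10395, 12070.2, 9896 and 8726 in WT libraries, with a log2 fold change of -0.02 ± 0.10 (SE; limma, adjusted p = 0.97). The 2 genes with matches to the deleted seed, Entpd1 and Lrrc32, were both among the members that did not pass here.

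**Figure D4:**
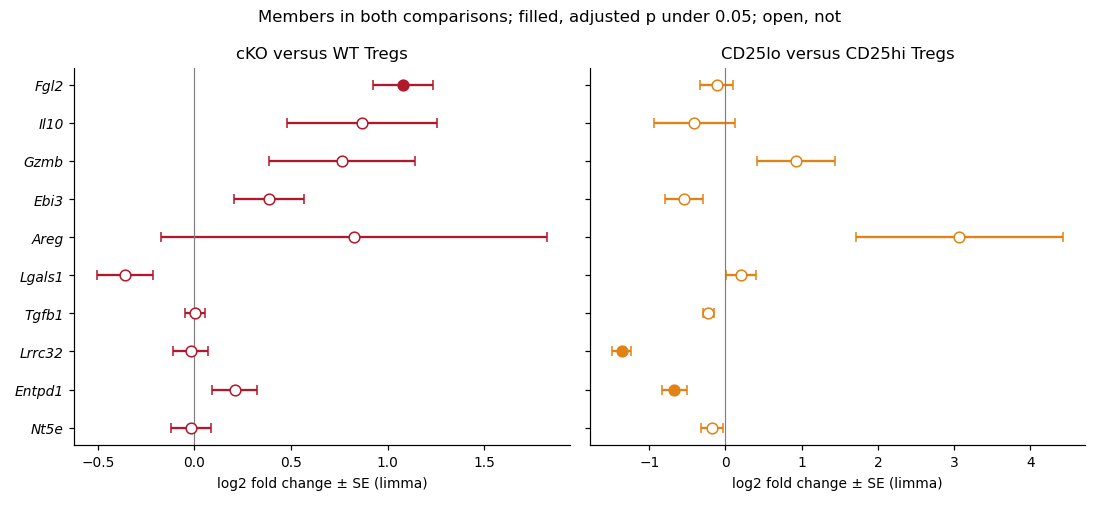
Log2 fold change with its standard error (limma) of each member, in cKO against WT Tregs on the left and CD25lo against CD25hi Tregs on the right, on different horizontal axes. Filled points passed at an adjusted p under 0.05: Fgl2 on the left, and Lrrc32 and Entpd1 on the right.

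Genes that work beside the members changed in each of the 7 pathway lists that held tested genes other than members, in cKO against WT Tregs. Of these 60 genes, 12 rose and 2 fell by limma, where 3.52% of all genes tested passed. The lists were chosen with earlier results of these data known, so setting these shares side by side does not test the lists. Among partners in cell contact, Lag3, an inhibitory receptor that binds MHC class II, averaged 2782 ± 702 normalized counts in cKO Tregs and 1362 ± 222 in WT Tregs (SD, n = 5 and 4), a log2 fold change of 1.01 (limma, adjusted p = 0.0027). Tigit, an inhibitory receptor whose engagement is known to induce FGL2 in mouse Tregs, averaged 4845 ± 1059 and 2424 ± 569 normalized counts in cKO and WT Tregs (limma, log2 fold change 1.0, adjusted p = 0.0020). Nrp1 and Icos, named after their values were seen, made up the 4 of 8 tested genes of that list that rose, at 0.36 and 0.53 on the log2 scale. Among genes of tissue repair, 2 of 8 rose, the IL-33 receptor gene Il1rl1 by 0.84 and the transcription factor gene Gata3 by 0.45 on the log2 scale (limma, adjusted p = 0.0015 and 0.018).

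In the adenosine pathway, 2 of 8 tested genes rose: Adora2a, an adenosine receptor gene of lymphocytes, by 0.57, and Dpp4, a surface peptidase that binds adenosine deaminase in humans, by 0.24 on the log2 scale (limma, adjusted p = 0.0034 and 0.049). Adora2a averaged 3728 ± 400.3 normalized counts in cKO and 2507 ± 202 in WT Tregs (SD, n = 5 and 4). Of 10 tested genes of TGF-beta activation, Itgb8, the beta-8 integrin chain that frees TGF-beta from GARP, rose by 0.77 (limma, adjusted p = 0.0049), with 2358 ± 436 normalized counts in cKO and 1375 ± 234 in WT Tregs. In the cytotoxic granule list, 1 of 13 rose and 2 fell. Serpinb9, the intracellular inhibitor of granzyme B, rose to 1306 ± 35.5 normalized counts in cKO Tregs, against 639.5 ± 88.9 in WT Tregs (limma, log2 fold change 1.04, adjusted p = 0.00032). The lysosomal membrane gene Lamp1 fell by 0.28 (limma, adjusted p = 0.026), and so did Ctsw, a cathepsin of killer lymphocytes that was named after its value was seen, by 0.50. The IL-10 receptor chain gene Il10ra rose by 0.48, as 1 of 8 tested genes around Il10, and Lgals3bp, a galectin ligand, by 0.34, as 1 of 5 around Lgals1 (limma, adjusted p = 0.0060 and 0.010).

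These 14 pathway genes all kept their direction in 15 other analyses and without each library in turn, but not all kept their call. Of the 14 fits that each left out 1 library, Dpp4 passed in 2, with an adjusted p of up to 0.14, Icos in 7, Ctsw in 9, Lamp1 and Nrp1 in 10 each and Gata3 in 13 (limma). Without cKO replicate 5, 9 of the 14 genes passed. Among the libraries with an immediate early level above 13, 8 of the 14 did. With a term for sex, 1 of the 14 passed, Serpinb9 (limma, log2 fold change 1.22, adjusted p = 0.035). The log2 fold changes with that term were 1.13 for Tigit, 0.77 for Lag3, 0.46 for Adora2a and 0.44 for Gata3, and that of Lamp1 was -0.13. Over all genes, 22 of 16241 passed with the term for sex, against 572 without it. WT replicate 3 is the only female WT library in that fit, so genotype and sex cannot be told apart for any of these genes.

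**Figure D5:**
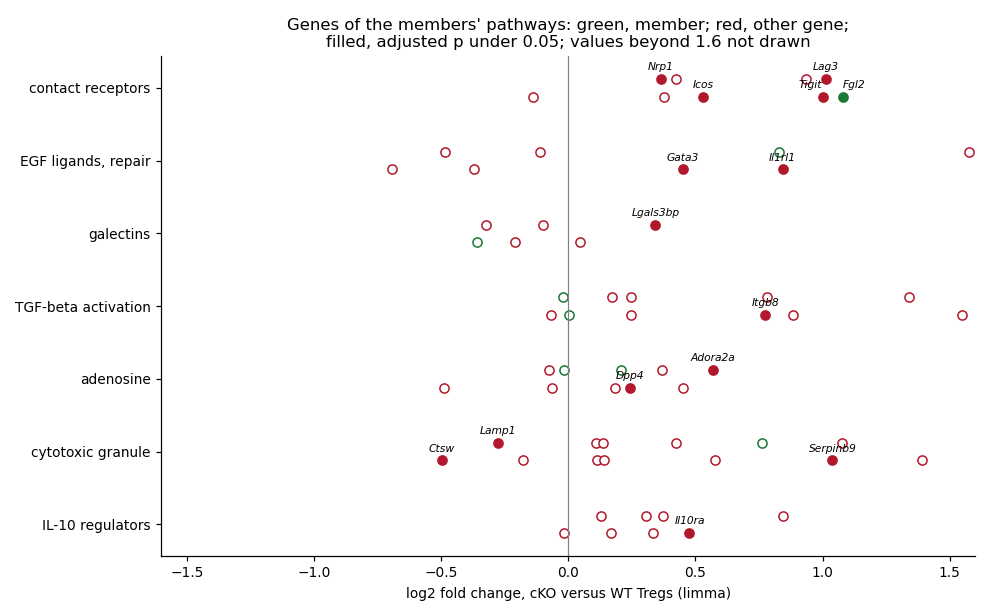
Log2 fold change in cKO against WT Tregs (limma) of tested genes in 7 pathway lists, with members in green and other genes in red. Filled points passed at an adjusted p under 0.05, and 3 genes beyond 1.6, none of which passed, are not drawn.

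The second comparison asks how the mediators differ between WT Tregs with low and high surface CD25. Of the 10 members, 2 passed the test, Lrrc32 and Entpd1, both lower in CD25lo Tregs, where 1.62% of all genes tested passed (1.01% as lower). The groups did not overlap for 6 members, 4 lower and 2 higher, and for 24.5% of all genes. Lrrc32 (ENSMUSG00000090958, chromosome 7, 98489283 to 98502181, GRCm38) had 7543 and 5923 normalized counts in CD25lo replicates 1 and 2, against 19648, 15989.6 and 16057 in CD25hi replicates 1 to 3. Both CD25lo libraries were below every other library of the study, of which the lowest was WT replicate 4 at 12770.4. The averages were 6733 ± 1145 in CD25lo and 17232 ± 2093 in CD25hi Tregs (SD, n = 2 and 3), a log2 fold change of -1.36 ± 0.12 (SE), or 0.390-fold (limma, adjusted p = 1.02e-05). Lrrc32 passed in each of 14 other analyses and without each library in turn. Il2ra, which encodes the sorted CD25, averaged 14854 ± 244 normalized counts in CD25lo and 40165 ± 889 in CD25hi Tregs.

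Entpd1 (ENSMUSG00000048120, chromosome 19, 40612366 to 40741602, GRCm38) had 888 and 1121 normalized counts in CD25lo replicates 1 and 2, against 1881, 1556 and 1369.5 in CD25hi replicates 1 to 3. The groups did not overlap, but the nearest libraries differed by less than the CD25hi libraries did among themselves. The log2 fold change was -0.67 ± 0.16 (SE), or 0.628-fold (limma, adjusted p = 0.041). Beside Lrrc32 and Entpd1, 6 of 8 tested genes of Treg identity passed as lower in CD25lo than in CD25hi Tregs, where 1.01% of all genes did. They were Foxp3, Il2ra, Ikzf2, Ikzf4, Tnfrsf18 and Gpr83. Il2ra encodes the sorted CD25, so its fall was set by the sort. The 8 genes, with Il2ra among them, summed to 76968 to 78455 normalized counts in CD25lo libraries, against 129569 to 136882 in CD25hi libraries. Their part in the values of Lrrc32 and Entpd1 was not tested. The Entpd1 call was close to the threshold and was lost in 6 of 14 other analyses and without any of 9 of the 14 libraries, among them both CD25lo libraries and CD25hi replicates 1 and 2, with an adjusted p of up to 0.25 (limma).

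Tgfb1 was also below the CD25hi range in both CD25lo libraries, with 7670.5 and 7089 normalized counts, against 8275, 8793 and 8828 in CD25hi replicates 1 to 3. The log2 fold change of -0.23 ± 0.07 (SE) did not pass with limma (adjusted p = 0.14) but did with DESeq2 on recovered reads (adjusted p = 0.028). Ebi3 had 462 and 733 normalized counts in CD25lo and 783, 802 and 981 in CD25hi libraries, and the log2 fold change of -0.55 ± 0.25 (SE) did not pass (limma, adjusted p = 0.33). It was -0.22 without CD25lo replicate 1 and -0.88 without CD25lo replicate 2. Nt5e, the enzyme downstream of CD39, had 6645 and 7501 normalized counts in CD25lo and 8579, 6784 and 8791 in CD25hi libraries, which overlapped (limma, log2 fold change -0.18, adjusted p = 0.62).

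Areg and Lgals1 were the 2 members with both CD25lo libraries above the CD25hi range, and neither passed. Areg had 85.5 and 196 normalized counts in CD25lo replicates 1 and 2, against 53.5, 0 and 68.6 in CD25hi replicates 1 to 3. Its log2 fold change of 3.06 ± 1.36 (SE; limma, adjusted p = 0.32) depends on the pseudocount, because CD25hi replicate 2 held no read, and edgeR gave 1.76. Lgals1 had 3321 and 3892 normalized counts in CD25lo and 3290.2, 3175 and 2904 in CD25hi libraries (limma, log2 fold change 0.20, adjusted p = 0.71). Il10 was low in both bins, at 291 and 217 normalized counts in CD25lo and 242, 419.7 and 366 in CD25hi libraries, and Gzmb likewise, at 276 and 392 in CD25lo and 254, 71.3 and 283 in CD25hi libraries. Fgl2, the member that rose in cKO Tregs, had 637 and 689 normalized counts in CD25lo and 685, 721 and 748 in CD25hi libraries, which overlapped (limma, log2 fold change -0.11 ± 0.21 (SE), adjusted p = 0.87).

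Among the 60 tested pathway genes other than members, limma called 0 in CD25lo against CD25hi Tregs, with 15 at an unadjusted p under 0.05. EdgeR also called 0, limma-voom called 1, Ctsw, and DESeq2 called 3, Ltbp1, Tnfsf10 and Ctsw, all lower. Tnfsf10, the gene of the death ligand TRAIL, averaged 2098 ± 411 normalized counts in CD25lo and 2985 ± 181 in CD25hi Tregs (SD, n = 2 and 3), and Ctsw 2326 ± 255 and 3588 ± 563.

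Whether the 2 comparisons differed was tested as the cKO minus WT log2 fold change less the CD25lo minus CD25hi one, where 1.03% of all genes passed. The members Lrrc32, Fgl2 and Entpd1 passed. Terms for sex, immediate early level and myeloid level were not fitted for this difference. Sex differed between most cKO and WT libraries, while all CD25lo and CD25hi libraries were male. For Lrrc32 the difference was 1.34 ± 0.15 (SE; limma, adjusted p = 0.00054), from values of -0.02 in cKO against WT and -1.36 in CD25lo against CD25hi Tregs. For Fgl2 it was 1.19 ± 0.27 (SE; limma, adjusted p = 0.037), from 1.08 and -0.11. For Entpd1 it was 0.88 ± 0.20 (SE; limma, adjusted p = 0.039), from 0.21 and -0.67. The Lrrc32 difference passed without each library in turn, the Fgl2 difference in 4 of those 14 fits and the Entpd1 difference in 5. Il2ra was lower in cKO as well as in CD25lo Tregs, at 15512 ± 1685 normalized counts in cKO and 26037 ± 2160.2 in WT Tregs (SD, n = 5 and 4; limma, log2 fold change -0.75, adjusted p = 1.51e-05), beside -1.43 in CD25lo against CD25hi Tregs, where it was the sorted product.

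Among 5830 genes with a mean of at least 1000 normalized counts, the 3 whose log2 profile over the 14 libraries lay nearest to that of Fgl2 were Tigit, Il1rl1 and Csf1, with root mean square differences of 0.24, 0.25 and 0.26. Nearest to Lrrc32 were Capn3 at 0.23, Il2rb, the IL-2 receptor beta chain gene, at 0.24, and Ptprj at 0.25. The log2 difference of Il2rb between CD25lo and CD25hi Tregs was -0.95. Nearest to Entpd1 were Lrig1 at 0.15, Trp53i11 at 0.16 and Tspan31 at 0.16. Profiles of this kind share libraries and normalization, and nearness is a description of them.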

How the data were processed

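Total RNA of FACS-sorted Tregs was sequenced as single-end reads in 14 libraries (5 cKO, 4 WT, 2 CD25lo and 3 CD25hi). Per the labels, the authors aligned the reads to GRCm38 with STAR 2.7.2b and scaled them with DESeq2 1.24.0. The counter and its strand setting are not given in the sources used here. The deposited signal values are normalized counts, that is, reads divided by a size factor and rounded, and all of them could be returned to whole reads (100% within 0.055 normalized counts). Columns of variance-stabilized values and of the authors' own fold changes and p-values were not used, nor were rows without values (48363 of 55536 rows had values).

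The main test was limma 3.58.1 with trend on log2(normalized count + 1) in 4 group means over all 14 libraries, for the 16241 genes that reached 10 normalized counts in 2 or more libraries. Benjamini-Hochberg adjusted p-values were called at 0.05. The fold changes are on this log2 scale, and those of low genes depend on the pseudocount and can lie above or below those of the count models. EdgeR 4.0.16 and DESeq2 1.42.0 on the recovered reads, other pseudocounts and filters, covariates and leaving out each library were the alternatives, and the fits were tested on simulated data. Within groups the libraries differed beyond sampling noise, so none was counted as a duplicate. Replicate numbers were not taken to pair the libraries, and for the CD25lo and CD25hi bins pairing could not be decided. The members and gene lists were chosen with earlier results of these data known. All members were named, with up to 2 other genes per pathway list and comparison by smallest adjusted p and the 3 genes nearest in profile to each called member. Genes outside this rule were named after their values were seen. Levels per kilobase used the union of GENCODE M21 exons. Counting intervals and floors cover counting error only. The summed level of B cell markers is not reported here.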

Additional observations from a re-analysis of the deposited data

Results flagged for a closer look

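Lgals1 had 5834.7 normalized counts in WT replicate 2, far from the 3766 to 4032 of the other 3 WT libraries, a gap of 0.871 of the range of the group. This was 1 of 20 groups of member values examined, and chance alone gives about 1 in 20. Without WT replicate 2 the cKO against WT log2 fold change of Lgals1 was -0.22 (limma, adjusted p = 0.52).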

How the results depend on the processing

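The counts of members called moved with the analysis. In cKO against WT Tregs 1 member was called, and 2 were with an immediate early term, 2 among libraries of like immediate early level and 4 with a myeloid term; without each library in turn the count stayed at 1. In CD25lo against CD25hi Tregs 2 were called, and 1 with edgeR on DESeq2 size factors, limma-voom, no filter, only the groups compared, the replicate block or a B cell term, since Entpd1 was lost, while DESeq2 called 3, Tgfb1 besides Lrrc32 and Entpd1, with 1 to 2 without each library in turn. When an arm kept 1 library, that library was assumed to vary like the others. With the replicate block Fgl2 and Entpd1 were also lost from the difference between the comparisons (1.13 and 0.97 on the log2 scale), as they were with no filter. The same-numbered cKO and WT libraries did not deviate together (r of -0.41 to -0.08 over 5830 genes for the 4 shared numbers). For the 2 sorted numbers r was 0.17 and -0.05. The deviations of 2 CD25lo libraries from their mean are mirror images, so these values cannot decide whether the bins were paired. Not every library correlated best with its own number. The block left 7 of the 14 pathway calls in cKO against WT Tregs.

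Signs turned only for members that were not called in the comparison or difference concerned. In cKO against WT Tregs, Nt5e was 0.027 with a sex term, 0.00972 with an immediate early term and 0.095 with a myeloid term, and -0.092 to 0.064 without each library in turn. Tgfb1 was -0.011 with a myeloid term and -0.011 to 0.024 without each library, Areg -0.15 to 1.28, and Lrrc32 0.0084 with an immediate early term, 0.037 with a myeloid term and -0.12 to 0.028 without each library. The Gzmb difference was 0.17 with edgeR and 0.15 with DESeq2, and -0.52 to 0.47 without each library. For the difference between the comparisons, the fit with only the groups compared equals the one over all groups and was not run. Over all genes, 572 were called in cKO against WT Tregs, but 22 with a sex term, 144 among libraries of like immediate early level, 290 with the replicate block, 878 with an immediate early term, 895 with DESeq2, 349 without cKO replicate 1 and 356 without cKO replicate 3. In CD25lo against CD25hi Tregs 263 were called, but 674 with DESeq2, 448 with an immediate early term, 160 with only the groups compared, 105 with the replicate block, 142 without CD25hi replicate 3 and 91 without CD25lo replicate 2. For the difference 168 were called, but 568 with DESeq2, 256 with the stricter filter, 83 with no filter, 25 with the block and 65 to 218 without each library. The CD25-sorted groups hold 2 and 3 libraries, which limits that comparison.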

Other observations

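The part of markers of other cell types in the results was not tested. Single genes carried several of the summed levels, which therefore do not measure those cell types. Pecam1 averaged 6324 normalized counts in cKO, 7927 in WT, 8341 in CD25lo and 7855 in CD25hi libraries among the stromal and endothelial markers, and Xbp1 2593 in cKO, 2379.6 in WT, 1671 in CD25lo and 2309.8 in CD25hi libraries among the plasma cell markers. Ccr9 averaged 677 in cKO, 386 in WT, 288 in CD25lo and 360.4 in CD25hi libraries among the dendritic cell markers, and Cd8b1 376 in cKO, 401.5 in WT, 463 in CD25lo and 441 in CD25hi libraries of the 2 CD8 markers. The 8 dendritic cell markers summed to 672 to 1062 in cKO and 341 to 649.6 in WT libraries, and to 291 to 338 in CD25lo and 336 to 493 in CD25hi libraries, with Flt3 and Cd209a at 0 in WT and Clec9a, Cd209a and Siglech at 0 in both sorted groups. The 7 NK markers summed to 186 to 469 in cKO and 404 to 638 in WT libraries, and to 388 to 416 in CD25lo and 100.4 to 236 in CD25hi libraries, with Klra8 and Klra4 at 0 throughout. The 5 plasma cell markers, of which Tnfrsf17 was at 0 in all 14 libraries, summed to 2357 to 2999 in cKO and 2169 to 2705 in WT libraries, and to 1513 to 1910.4 in CD25lo and 2179 to 2449 in CD25hi libraries. The 2 CD8 markers summed to 313 to 461 in cKO and 301 to 661 in WT libraries, and to 420.1 to 532 in CD25lo and 267 to 592 in CD25hi libraries. The 8 platelet and erythroid markers, with Pf4 at 0 throughout, summed to 46.0 to 131 in cKO and 129.5 to 293 in WT libraries, and to 101 to 109 in CD25lo and 67.5 to 115 in CD25hi libraries. The 8 stromal and endothelial markers, with Pdgfra at 0 throughout, summed to 6038 to 7070.1 in cKO and 7607 to 8422 in WT libraries, and to 7724 to 9187 in CD25lo and 7383 to 8415 in CD25hi libraries.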
